A study of Mus musculus with 8 samples.

Results

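The unfolded protein response and the integrated stress response were examined here through 31 genes, chosen by symbol as known members of these pathways and found by identifier among the 37991 genes of the count table. They fell into a branch governed by ATF6 and XBP1 and a branch governed by PERK and ATF4. The first held 3 sensors and factors (Atf6, Ern1, Xbp1), 14 chaperones and folding factors (Hspa5, Hsp90b1, Hyou1, Calr, Canx, Pdia3, Pdia4, Pdia6, Dnajb9, Dnajb11, Dnajc3, Sdf2l1, Creld2, Manf) and 6 genes of ER-associated degradation, abbreviated ERAD (Herpud1, Sel1l, Edem1, Syvn1, Derl1, Derl2). The PERK/ATF4 branch held 8 genes (Eif2ak3, Atf4, Atf5, Ddit3, Trib3, Chac1, Asns, Ppp1r15a). RNA came from bone marrow of C57BL/6J mice, from Flt3- LSK cells, which are enriched for haematopoietic stem cells and early progenitors, with 24000 cells sorted per sample. The labels call the genotype of the 2 Mut samples Runx1 deficient and that of the 2 WT samples wild type, with Runx1f/f, a floxed form of this transcription factor gene. Each sample gave a polyA-selected library (mRNA library) and a total RNA library, with ERCC spike-in RNA in all 8. The Cre line, the age and sex of the mice and whether a sample was 1 animal or a pool are not given in the labels.

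When unfolded proteins build up in the endoplasmic reticulum (ER), membrane sensors are released from the chaperone BiP and become active. ATF6 is cut to a transcription factor, and IRE1, the product of Ern1, splices Xbp1 mRNA, which then encodes a factor that raises chaperone and ERAD genes. PERK, like other kinases of the same initiation factor, slows translation in general while ATF4 is made, and ATF4 raises genes of amino acid supply as well as CHOP and its partners. Haematopoietic stem cells are known to be sensitive to both branches and to keep protein synthesis low. Gene counts cannot show Xbp1 splicing, protein phosphorylation or translation, on which much of this signalling rests.

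The outcome of the comparison rested on Asns, so its promoter is shown, next to that of Hspa5 as the model promoter of the chaperone arm. RefSeq windows from 250 bases before to 50 after the start site (build GRCm38.p6) were found for 27 of the 31 genes, 29 windows in all. A gene was counted as holding a motif if any of its windows did, while the share over all promoters is one of windows. Each window was searched on both strands for 4 motifs, and capitals mark the motif below. The 250 bases before the start are printed for Asns (chr6:7693210-7693459, minus strand) and Hspa5 (chr2:34771840-34772089, plus strand), 5′ to 3′ in the direction of the gene.
Asns: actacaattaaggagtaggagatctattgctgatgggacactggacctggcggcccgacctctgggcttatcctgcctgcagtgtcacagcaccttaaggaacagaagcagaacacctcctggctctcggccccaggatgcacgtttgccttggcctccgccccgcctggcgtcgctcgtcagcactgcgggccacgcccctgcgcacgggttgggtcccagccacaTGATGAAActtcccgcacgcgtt
Hspa5: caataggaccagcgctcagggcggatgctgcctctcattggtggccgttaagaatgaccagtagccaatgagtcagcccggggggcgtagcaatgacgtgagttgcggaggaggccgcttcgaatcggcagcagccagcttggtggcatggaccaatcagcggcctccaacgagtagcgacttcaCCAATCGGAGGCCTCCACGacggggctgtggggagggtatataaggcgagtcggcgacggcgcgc
The motif in the Asns window is the C/EBP-ATF response element, abbreviated CARE, the kind of site that ATF4 is known to bind, searched as TGATG, 1 base of any kind and AA. It ended 15 bases before the Asns start. The motif in the Hspa5 window is the ER stress response element (ERSE), searched as CCAAT, 9 bases of any kind and CCACG, which ATF6 binds together with the factor NF-Y.

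An exact ERSE stood in the windows of 8 of the 27 genes (29.6%), against 0.119% of all 32851 windows. They were 7 of the 12 chaperone genes with a window and the ERAD gene Syvn1, and Hsp90b1 held 2 of them. The sites are printed to show the bases between and around the letters that the search fixed, each in the orientation of the motif with 6 flanking bases.
Calr: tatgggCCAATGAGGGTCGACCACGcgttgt
Canx: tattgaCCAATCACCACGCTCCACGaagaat
Creld2: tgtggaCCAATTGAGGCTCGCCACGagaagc
Dnajc3: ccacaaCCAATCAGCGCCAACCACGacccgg
Hsp90b1, far site: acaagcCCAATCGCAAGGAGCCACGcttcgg
Hsp90b1, near site: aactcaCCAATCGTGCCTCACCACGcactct
Hspa5: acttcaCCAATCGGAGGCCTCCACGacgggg
Pdia6: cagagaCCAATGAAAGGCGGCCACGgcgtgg
Syvn1: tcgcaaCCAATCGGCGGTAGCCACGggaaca
The related ERSE-II, searched as ATTGG, 1 base of any kind and CCACG, stood in the Dnajb11 and Herpud1 windows, and in 0.0365% of all windows. The XBP1 site TGACGTGG stood in no window of the 27 genes, against 0.676% of all windows.

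CARE sites stood in the windows of 4 of the 27 genes (14.8%), against 3.97% of all windows. Of the 8 PERK/ATF4 genes, Asns, Chac1 and Trib3 held one, and Herpud1 was the only ATF6/XBP1 gene with one. These sites are printed because Asns alone among these genes was called different between the groups, while the other carriers of the same letters were not.
Asns: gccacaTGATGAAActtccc
Chac1: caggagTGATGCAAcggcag
Trib3: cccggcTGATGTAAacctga
Herpud1: gcgggcTGATGCAAcccgcc
A match of letters is a description of the window and not evidence of binding. The genes were chosen as known members of these pathways, so their motif shares beside those of all windows are no test.

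Counts assigned to genes came to between 35096252 and 37924699 in the mRNA libraries and between 967694 and 1218437 in the total RNA libraries, where ribosomal RNA took 93.3 to 94.5% of all counts. Runx1 itself went against the label: it stood at 749 and 941 CPM (counts of each library brought to a common total, with TMM factors) in Mut-labelled mRNA libraries, against 200 and 207 CPM in WT. Counts summed over all exons say nothing on a deletion of some of them, and the group is called Mut-labelled throughout. A list of 6 surface marker genes was counted in every library. Kit, Ly6a and Flt3 belong to the Flt3- LSK gate, while Cd34, Slamf1 and Cd48 are not part of its name. Flt3, which the gate should lack, had 57.3 and 87.5 CPM in Mut-labelled mRNA libraries and 117 and 155 CPM in WT. Cd48 went the other way, with 181 and 179 CPM in Mut-labelled and 47.6 and 42.6 CPM in WT (edgeR adjusted p = 0.00451). It was higher in total RNA too (edgeR adjusted p = 3.425e-06). Kit and Slamf1 were also wholly higher in Mut-labelled mRNA libraries, while Ly6a and Cd34 overlapped. Of 8 genes of lineages that the gate excludes, 2 were wholly higher there, among them Itgam, and 3 wholly lower. Summed markers of plasma cells (14 of 15 in the table) came to 766 and 2547 CPM in Mut-labelled mRNA libraries and to 1522 and 10350 CPM in WT, with WT replicate 2 far above the rest. Igkc (6731 CPM) and Jchain (2605 CPM) took most of that library's sum. Ighm did not follow the sum, with 32.9 and 17.9 CPM in Mut-labelled and 295 and 182 CPM in WT (edgeR adjusted p = 0.0152). It was lower in total RNA as well (edgeR adjusted p = 6.227e-06). In mRNA Fkbp11 too was highest in WT replicate 1. Of the 14 genes, 3 were wholly lower in Mut-labelled mRNA libraries and 11 overlapped. Over all genes tested in mRNA libraries, 44.6% had groups that did not overlap. Mature neutrophil markers (11 of 11) summed to 529 and 167 CPM in Mut-labelled and 41.9 and 49.8 CPM in WT mRNA libraries, with 10 of the 11 wholly higher in Mut-labelled. Mast cell and basophil markers (10 of 10) summed to 686 and 881 CPM in Mut-labelled and to 184 and 127 CPM in WT, but the list split. Cpa3, Hdc, Ms4a2 and Il1rl1 were wholly higher in Mut-labelled libraries, with Cpa3 at 455 and 513 CPM in Mut-labelled and 28.7 and 19.4 CPM in WT. Mcpt8, Prss34, Fcer1a, Tpsb2 and Gzmb were wholly lower, with Prss34 at 0.0286 and 0 CPM in Mut-labelled and 68.8 and 44.3 CPM in WT. No marker of the plasma cell, neutrophil, or mast cell and basophil lists was at 0 in all 4 mRNA libraries.

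All 31 genes could be tested in the mRNA libraries, and 1 was called different at an edgeR adjusted p under 0.05: Asns, which fell in the Mut-labelled libraries. Over all 17128 genes tested, 3.64% were called in either direction and 1.89% as lower. The log2 fold changes (Mut-labelled over WT) of the other 30 genes lay between −0.66 (Ern1) and 0.35 (Ddit3). The median over the 31 genes was 0.09, against −0.01 over all genes tested, and 28 of 31 (90.3%) were within 1.25-fold, against 60.8% of all tested genes that had counts in all 4 libraries, a set that holds many genes of lower counts. The groups did not overlap for 7 of the 31 genes, 5 with the Mut-labelled libraries above and 2 below, where 44.6% of all genes tested did not overlap. An unadjusted p under 0.05 was found for Asns and Ern1, against 15.7% of all genes tested.

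In the total RNA libraries 30 genes could be tested, since Chac1 had too few counts, and Asns was again the 1 gene called, and again lower. Of all 10546 genes tested there, 4.23% were called in either direction and 1.68% as lower. The median of the 30 genes was −0.08, against −0.00 over all genes. The Mut-labelled libraries were wholly above WT for 6 genes and wholly below for 4, where 44% of all genes did not overlap. An unadjusted p under 0.05 was found for Asns, Ern1 and Ppp1r15a, against 14.8% of all genes. The total RNA libraries come from the same named samples as the mRNA libraries, so they are a second measurement of the same samples and not new ones. Signs of the uncalled genes depended on the scaling: with TMM 21 of 31 were positive in mRNA and 13 of 30 in total RNA, and with ERCC scaling, which moved the median of all genes to −0.38 and −1.11, none was.

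**Figure D1:**
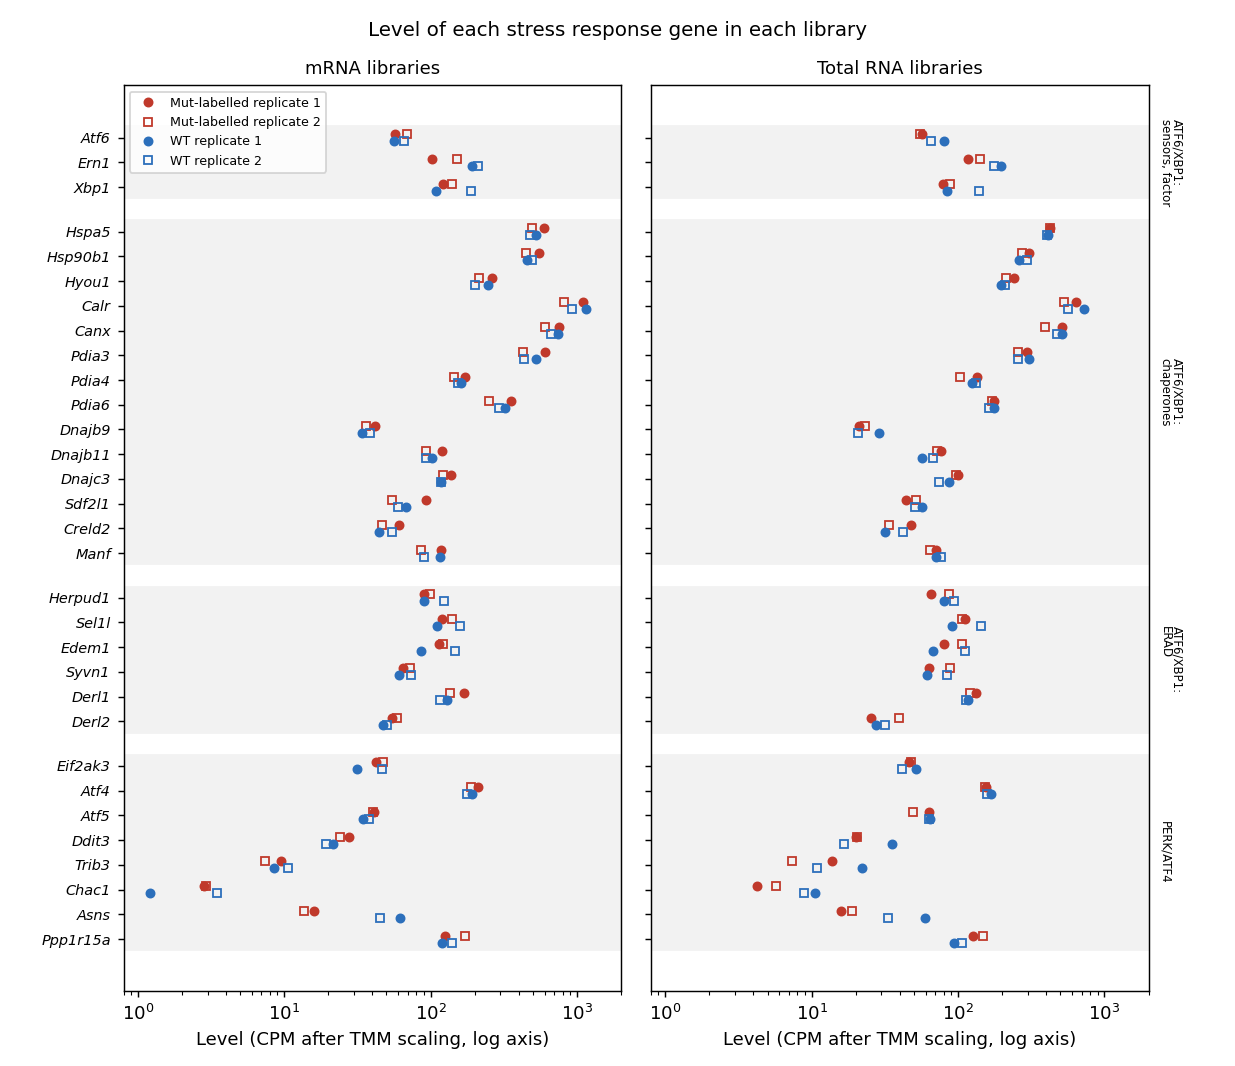
Level of each of the 31 genes in each library (CPM after TMM scaling, log axis; Mut-labelled red, above WT blue; circle replicate 1, square replicate 2), with mRNA libraries on the left and total RNA libraries on the right. The red and blue marks of Asns stand apart in both panels (13.8 to 18.9 CPM in Mut-labelled, 33.5 to 61.6 CPM in WT), while those of most other genes lie together.

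Asns encodes asparagine synthetase, which makes asparagine from aspartate and glutamine and is a standard target of ATF4. It had 16.1 and 13.8 CPM (562 and 503 counts) in the Mut-labelled mRNA libraries, against 61.6 and 44.9 CPM (2338 and 1718 counts) in WT. Both Mut-labelled libraries were far below both WT libraries. The log2 fold change was −1.84 ± 0.22 (SE, n = 2 each; 95% interval −2.37 to −1.30; edgeR adjusted p = 0.016), which is 3.57-fold lower in the Mut-labelled libraries. In total RNA Asns had 15.8 and 18.9 CPM (15 and 23 counts) in Mut-labelled, against 59.2 and 33.5 CPM (62 and 34 counts) in WT libraries. The groups again did not overlap, and the log2 fold change was −1.40 ± 0.34 (SE, n = 2 each; 95% interval −2.12 to −0.69; edgeR adjusted p = 0.0198). In bulk RNA, fewer cells of a type and less RNA per cell cannot be told apart. Markers of other cells also divided the groups without overlap. In mRNA 10 of 11 neutrophil markers were wholly higher in Mut-labelled libraries. Of 10 mast cell and basophil markers 4 were wholly higher and 5 wholly lower, and of 14 plasma cell markers 3 were wholly lower. In total RNA 8 neutrophil markers were wholly higher, 4 mast cell and basophil markers higher and 3 lower, and 3 plasma cell markers lower. The 3 plasma cell markers were Ighm, Ighg2c and Fkbp11 in both kinds. Over all genes tested, 44.6% in mRNA and 44% in total RNA did not overlap. The part of these cell types in the Asns difference was not tested. The total RNA call was lost without WT replicate 1 (log2 fold change −0.93, adjusted p = 0.346) and with the DESeq2 test (adjusted p = 0.201). The mRNA call was lost when libraries were scaled by their ERCC counts (log2 fold change −2.17, adjusted p = 0.9996), a scaling that moved the median of all genes to −0.38.

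None of the factors and the kinase upstream of Asns was called. Atf4, the factor itself, had 209 and 189 CPM in Mut-labelled mRNA libraries and 193 and 176 CPM in WT, and its groups overlapped (log2 fold change 0.11 ± 0.13, 95% interval for the fold 0.86 to 1.35, edgeR adjusted p = 0.814). Its total RNA values were 155 and 154 CPM in Mut-labelled, both just below the 168 and 157 CPM in WT (log2 fold change −0.07 ± 0.17, adjusted p = 0.909). Eif2ak3, which encodes PERK, had 42.2 and 47.1 CPM in Mut-labelled mRNA libraries and 31.4 and 46.7 CPM in WT (0.19 ± 0.22, adjusted p = 0.805). WT replicate 1 was the low library there, and in total RNA the Mut-labelled values of 46.5 and 47.7 CPM lay between the WT values of 51.6 and 41.3 CPM (0.02 ± 0.26, adjusted p = 0.984).

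Atf5, a second factor of the branch, had 41.0 and 40.2 CPM in Mut-labelled mRNA libraries and 34.8 and 38.1 CPM in WT. Both Mut-labelled values were above both WT values, by less than the test could call (log2 fold change 0.15 ± 0.15, adjusted p = 0.753), and in total RNA the groups overlapped, with 63.4 and 49.3 CPM in Mut-labelled and 64.0 and 63.0 CPM in WT (−0.18 ± 0.24, adjusted p = 0.814). Ddit3, which encodes CHOP, a factor tied to cell death under lasting stress, had 27.8 and 24.1 CPM in Mut-labelled mRNA libraries, against 21.4 and 19.3 CPM in WT. These groups did not overlap, but the difference was not called (0.35 ± 0.19, adjusted p = 0.483). In total RNA Ddit3 had 20.1 and 20.6 CPM in Mut-labelled and 35.3 and 16.7 CPM in WT (−0.36 ± 0.39, adjusted p = 0.757), so that WT replicate 1 alone was high.

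The remaining 3 genes downstream of ATF4 were not called, and 2 of them were thinly counted. Trib3, a pseudokinase that ATF4 and CHOP induce, had 9.54 and 7.36 CPM in Mut-labelled mRNA libraries and 8.56 and 10.6 CPM in WT, with overlapping groups (log2 fold change −0.18 ± 0.28, adjusted p = 0.867). Its total RNA libraries held 13 and 9 counts in Mut-labelled and 23 and 11 counts in WT (−0.67 ± 0.50, adjusted p = 0.613), which leaves a wide 95% interval of 0.30 to 1.30 for the fold. Chac1, an enzyme that breaks down glutathione, had 100 and 107 counts in Mut-labelled mRNA libraries and 46 and 133 counts in WT, a spread within WT that holds both Mut-labelled values (0.30 ± 0.55, adjusted p = 0.895). Its 4 and 7 counts in Mut-labelled and 11 and 9 counts in WT total RNA libraries were too few to test. Ppp1r15a, which encodes GADD34, the phosphatase subunit that ends the translation block, had 126 and 171 CPM in Mut-labelled mRNA libraries and 120 and 140 CPM in WT (0.20 ± 0.18, adjusted p = 0.748). The total RNA libraries had 127 and 147 CPM in Mut-labelled, both above the 94.5 and 106 CPM in WT, and the difference of 0.45 ± 0.19 on the log2 scale was not called (unadjusted p = 0.0243, adjusted p = 0.232).

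**Figure D2:**
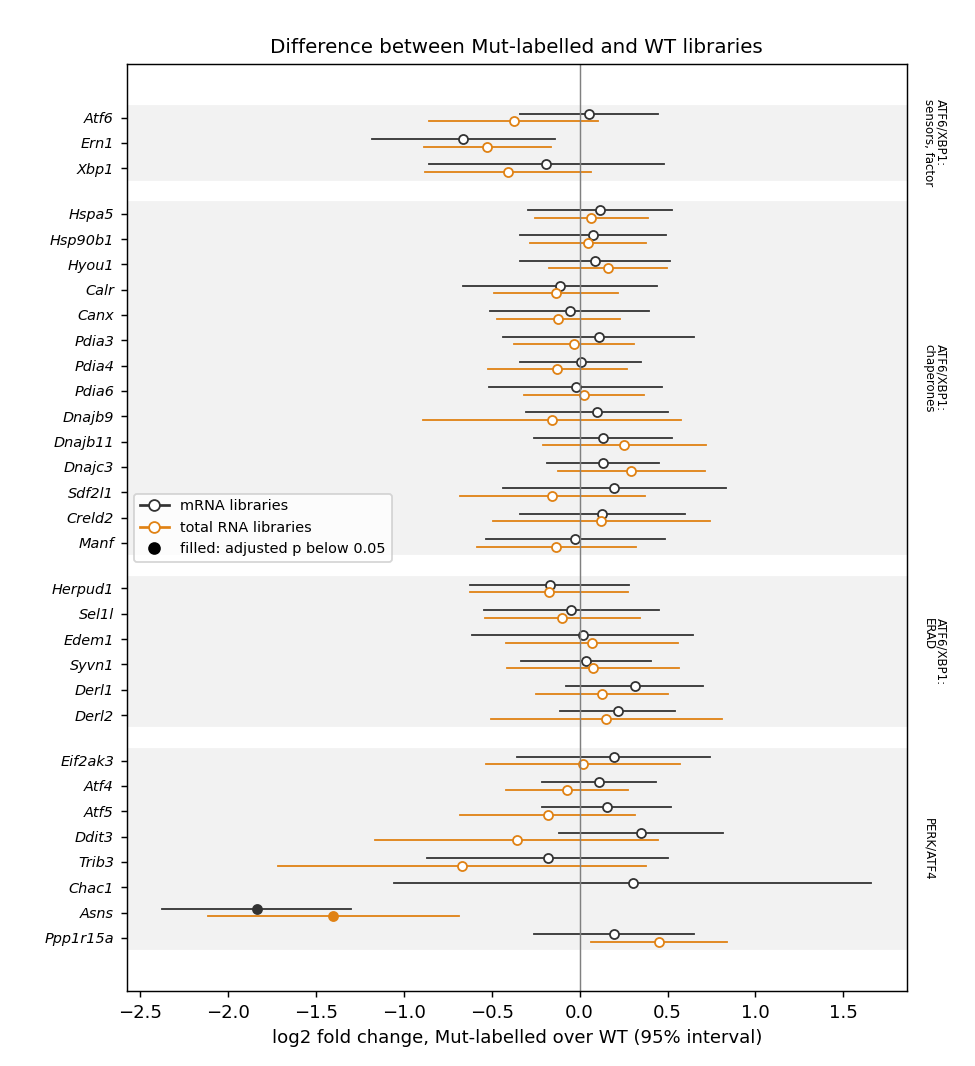
log2 fold change (Mut-labelled over WT) of each gene with its 95% interval from the edgeR fit, for mRNA libraries (dark) and total RNA libraries (orange); filled points have an adjusted p below 0.05. Asns is the only filled gene (−1.84 in mRNA, −1.40 in total RNA), and the intervals of all 14 chaperones cross 0.

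The Asns difference was set beside other genes of the PERK/ATF4 branch, a list of 44 amino acid transporters, synthesis enzymes, tRNA synthetases and stress genes. None of the 43 tested in mRNA libraries and none of the 39 tested in total RNA was called, with medians of −0.01 and −0.11. The DESeq2 test called none of them in either kind, where it called 1615 of 17128 genes in mRNA and 203 of 10546 in total RNA. The unadjusted p of edgeR was under 0.05 for 6 of the 43 and 8 of the 39, against 15.7% and 14.8% of all genes tested. The smallest in mRNA belonged to Bbc3, which encodes the pro-apoptotic protein PUMA, with 48.9 and 60.1 CPM in Mut-labelled and 31.3 and 39.8 CPM in WT (log2 fold change 0.62 ± 0.19, adjusted p = 0.181). Slc3a2, the heavy chain of amino acid transporters, followed with 265 and 241 CPM in Mut-labelled and 196 and 183 CPM in WT (0.42 ± 0.13, adjusted p = 0.188). Neither difference was seen in total RNA. Bbc3 was wholly below WT there (−0.36 ± 0.25, adjusted p = 0.579), and the groups of Slc3a2 overlapped (−0.06 ± 0.19, adjusted p = 0.942). The smallest unadjusted p in total RNA belonged to Wars, the tryptophanyl-tRNA synthetase, with 78.2 and 70.7 CPM in Mut-labelled and 117 and 117 CPM in WT (−0.66 ± 0.19, adjusted p = 0.0673). The glycine transporter gene Slc6a9 was next (−1.67 ± 0.58, adjusted p = 0.136), with 6 and 4 counts in Mut-labelled and 12 and 19 counts in WT. In mRNA libraries the log2 fold changes of Wars and Slc6a9 were −0.15 ± 0.16 and −0.05 ± 0.26. The serine synthesis enzyme Psat1, another known ATF4 target, had 223 and 175 CPM in Mut-labelled mRNA libraries and 179 and 161 CPM in WT (0.23 ± 0.16, adjusted p = 0.632). Pycr1, Slc7a1, Slc7a5, Aldh18a1, Gpt2, Eif2b5 and Slc6a9 of the same list were wholly below WT in both kinds, and uncalled. Jdp2 was wholly above WT in both kinds, and also uncalled. Psat1 and, Slc6a9 aside, these genes were named after their values were seen. Of the genes tested, 9 were wholly above WT and 9 wholly below in mRNA. In total RNA 5 were wholly above and 16 wholly below. Over all genes tested, 44.6% and 44% did not overlap.

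In the ATF6/XBP1 branch the sensor Ern1 came nearest to a call. It had 102 and 152 CPM in Mut-labelled mRNA libraries, against 193 and 209 CPM in WT, with Mut-labelled replicate 1 the lowest and no overlap. The log2 fold change was −0.66 ± 0.21 (SE, n = 2 each; edgeR adjusted p = 0.193). In total RNA Ern1 had 117 and 141 CPM in Mut-labelled, against 197 and 176 CPM in WT, again with no overlap (−0.53 ± 0.17, adjusted p = 0.107). The mRNA difference was −0.98 and was called without Mut-labelled replicate 2 (adjusted p = 0.0401), was −0.40 without Mut-labelled replicate 1 (adjusted p = 0.338), and was called with the DESeq2 test (adjusted p = 0.0403).

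Atf6 had 57.0 and 69.5 CPM in Mut-labelled mRNA libraries and 56.5 and 65.4 CPM in WT, with overlapping groups (log2 fold change 0.05 ± 0.16, adjusted p = 0.940). Its total RNA values were 57.1 and 55.1 CPM in Mut-labelled, both below the 80.2 and 65.0 CPM in WT (−0.37 ± 0.23, adjusted p = 0.506). Xbp1 had 121 and 140 CPM in Mut-labelled mRNA libraries and 108 and 190 CPM in WT (−0.19 ± 0.27, adjusted p = 0.853). In total RNA Xbp1 had 79.3 and 87.9 CPM in Mut-labelled and 84.0 and 139 CPM in WT (−0.41 ± 0.23, adjusted p = 0.440). WT replicate 2 was the high library for Xbp1 in both kinds, and without it the log2 fold change was 0.28 in mRNA and 0.00 in total RNA. That library also had the highest sum of plasma cell markers, a list that includes Xbp1, and the part of such cells in the Xbp1 values was not tested.

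**Figure D3:**
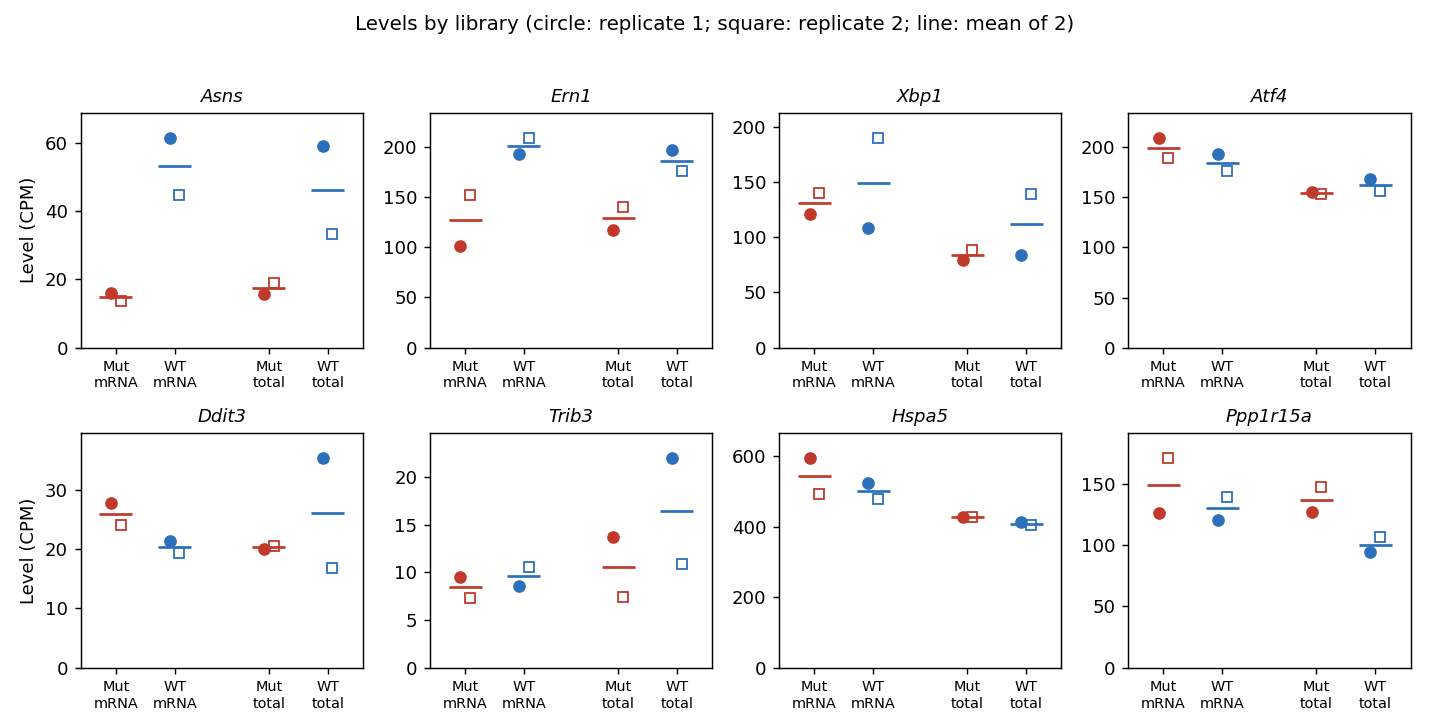
Level (CPM, linear axis from 0) of 8 genes in each library, with Mut-labelled left of WT in mRNA and then in total RNA; circles are replicate 1, squares replicate 2 and lines the mean of the 2. The groups of Asns and Ern1 do not overlap in either kind of library, whereas those of Xbp1 and Trib3 overlap in both.

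None of the 14 chaperones and folding factors was called in either kind of library. Their log2 fold changes lay between −0.11 and 0.20 in mRNA (median 0.09) and between −0.16 and 0.29 in total RNA (median −0.01), with no unadjusted p under 0.05 and no call by the DESeq2 test either. Hspa5, which encodes BiP, had 594 and 491 CPM in Mut-labelled mRNA libraries and 523 and 477 CPM in WT (0.12 ± 0.17, adjusted p = 0.849), with a 95% interval for the fold of 0.82 to 1.44. Its total RNA values were 427 and 427 CPM in Mut-labelled and 413 and 404 CPM in WT (0.07 ± 0.15, adjusted p = 0.909). Mut-labelled replicate 1 was the high library in mRNA, and in total RNA both Mut-labelled values were just above both WT values.

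Calr, the lectin chaperone calreticulin, took the most counts of these genes, with 1095 and 815 CPM in Mut-labelled mRNA libraries and 1147 and 917 CPM in WT (−0.11 ± 0.22, adjusted p = 0.907). Its partner calnexin, Canx, had 756 and 600 CPM in Mut-labelled and 742 and 668 CPM in WT (−0.06 ± 0.18, adjusted p = 0.944). Replicate 1 was above replicate 2 in both groups for both genes. Sdf2l1, a subunit of a BiP co-chaperone complex, had the largest mRNA difference of the chaperones, with 92.6 and 54.5 CPM in Mut-labelled and 67.9 and 60.3 CPM in WT, so that the Mut-labelled values enclosed the WT values (0.20 ± 0.26, adjusted p = 0.832). Its total RNA difference had the other sign, with 44.4 and 51.8 CPM in Mut-labelled and 56.3 and 51.2 CPM in WT (−0.15 ± 0.25, edgeR adjusted p = 0.857).

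The next largest mRNA difference was that of the J-domain co-chaperone Dnajb11, with 119 and 93.7 CPM in Mut-labelled mRNA libraries and 102 and 92.8 CPM in WT (0.13 ± 0.16, adjusted p = 0.815). In total RNA it had 76.1 and 72.3 CPM in Mut-labelled, above the 56.3 and 67.9 CPM in WT (0.25 ± 0.22, adjusted p = 0.683). Another J-domain co-chaperone, Dnajc3, was the 1 chaperone gene whose mRNA groups did not overlap, with 138 and 121 CPM in Mut-labelled and 119 and 118 CPM in WT (0.13 ± 0.13, adjusted p = 0.761). In total RNA the Dnajc3 groups were also apart, at 100 and 97.0 CPM in Mut-labelled and 86.9 and 73.8 CPM in WT (0.29 ± 0.20, adjusted p = 0.564).

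The other chaperone genes gave mRNA values with overlapping groups. Hsp90b1, the ER form of HSP90, had 553 and 445 CPM in Mut-labelled and 457 and 490 CPM in WT. Hyou1, a large ER chaperone of the HSP70 kind, had 261 and 215 CPM in Mut-labelled and 248 and 200 CPM in WT. These differences were 0.08 and 0.09 on the log2 scale. The disulfide isomerase Pdia3 had 609 and 427 CPM in Mut-labelled and 526 and 435 CPM in WT. Pdia4 had 172 and 144 CPM in Mut-labelled and 160 and 155 CPM in WT, and Pdia6 356 and 249 CPM in Mut-labelled and 320 and 295 CPM in WT. For all 3 isomerases the Mut-labelled values enclosed the WT values. The BiP co-chaperone Dnajb9 had 41.7 and 36.5 CPM in Mut-labelled and 34.2 and 38.8 CPM in WT, and Creld2, an ER-resident protein that cells also secrete, 61.1 and 46.8 CPM in Mut-labelled and 44.2 and 54.5 CPM in WT. Manf, a secreted factor that binds BiP, had 117 and 85.9 CPM in Mut-labelled and 117 and 90.2 CPM in WT.

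The median absolute log2 ratio of the chaperones in mRNA was 0.10 between the groups, 0.34 between the Mut-labelled libraries and 0.16 between the WT libraries, where all genes with counts in all 4 libraries gave 0.23, 0.30 and 0.24. A ratio of group means is steadier than a ratio of single libraries. Mut-labelled replicate 1 was above Mut-labelled replicate 2 for 14 of 14 chaperone genes in mRNA and for 11 of 14 in total RNA, where 50.2% and 49.2% of all genes were. WT replicate 1 was above WT replicate 2 for 11 of 14 in mRNA and 8 of 14 in total RNA. The 14 genes summed to 4966 and 3826 CPM in Mut-labelled mRNA libraries and to 4606 and 4092 CPM in WT. The absolute log2 fold change was smaller than the larger of the ratios between libraries of a group for 14 of 14 chaperones in mRNA, and for 26 of all 31 genes (83.9%), against 67.0% of all genes. Mut-labelled replicate 1 was also the mRNA library with the highest neutrophil marker sum, and it had 8.91 ERCC counts per 1000 gene counts, against 3.81 in Mut-labelled replicate 2. In total RNA its neutrophil marker sum was again the highest (268 CPM, against 118 CPM in Mut-labelled replicate 2). The ERCC order was the reverse there, with 7.72 in Mut-labelled replicate 1 and 13.6 in Mut-labelled replicate 2. The part of neutrophils or of ERCC amounts in the chaperone levels was not tested.

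**Figure D4:**
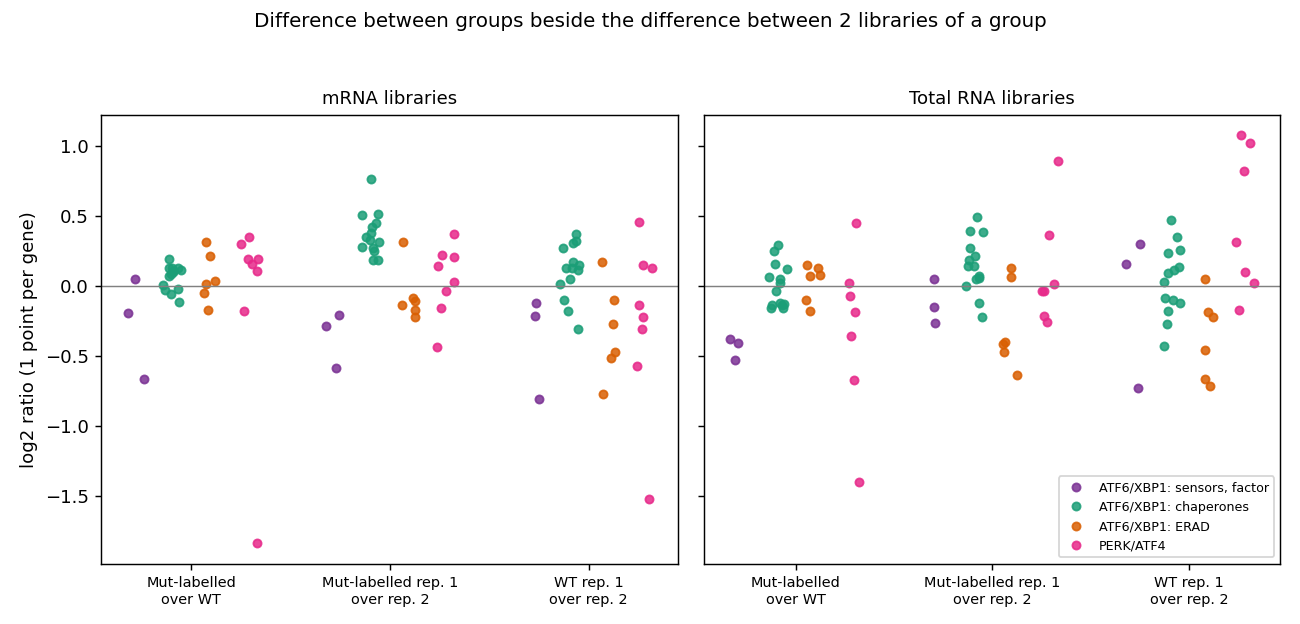
log2 ratio of each gene between groups (Mut-labelled over WT, left of each panel) and between the 2 libraries of each group (replicate 1 over replicate 2), for mRNA and total RNA libraries, coloured by branch. The chaperones (green) lie between −0.11 and 0.20 in the mRNA group difference, and all 14 lie above 0 in the Mut-labelled replicate ratio.

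The 6 ERAD genes were not called either, by edgeR or DESeq2, and none had an unadjusted p under 0.05, with log2 fold changes between −0.17 and 0.31 in mRNA and between −0.17 and 0.15 in total RNA. Derl1, a membrane protein of the channel through which proteins leave the ER, had 170 and 136 CPM in Mut-labelled mRNA libraries, both above the 130 and 116 CPM in WT (0.31 ± 0.16, adjusted p = 0.446). In total RNA Derl1 had 132 and 121 CPM in Mut-labelled and 117 and 113 CPM in WT, with the same order of the groups (0.13 ± 0.18, adjusted p = 0.828). Its relative Derl2 had 54.5 and 58.8 CPM in Mut-labelled and 47.0 and 50.4 CPM in WT mRNA libraries, again without overlap (0.22 ± 0.13, adjusted p = 0.553). In total RNA the Derl2 groups overlapped, at 25.4 and 39.5 CPM in Mut-labelled and 27.7 and 31.5 CPM in WT (0.15 ± 0.31, adjusted p = 0.894).

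The other 4 ERAD genes had their highest mRNA value in WT replicate 2. Edem1, which trims the sugars of misfolded glycoproteins, had 114 and 121 CPM in Mut-labelled mRNA libraries and 85.9 and 146 CPM in WT. Sel1l, the adaptor of the ubiquitin ligase, had 120 and 140 CPM in Mut-labelled and 110 and 158 CPM in WT. Herpud1, a scaffold of the same complex, had 90.9 and 99.5 CPM in Mut-labelled and 89.9 and 124 CPM in WT. Syvn1, the ligase HRD1 itself, had 64.8 and 72.8 CPM in Mut-labelled and 60.8 and 73.5 CPM in WT. In each of the 4 the WT mRNA values enclosed both Mut-labelled values, and in total RNA this held for Edem1 and Sel1l alone. There Herpud1 had 65.5 and 87.1 CPM in Mut-labelled and 80.2 and 93.5 CPM in WT. Syvn1 had 63.4 and 87.9 CPM in Mut-labelled and 61.1 and 83.7 CPM in WT total RNA libraries, with Mut-labelled replicate 2 the highest. Replicate 2 was above replicate 1 in WT for all ERAD genes but Derl1, in both kinds of library, where 50.5% of all genes in mRNA and 49.7% in total RNA had replicate 1 above. The Mut-labelled mRNA libraries had the same order, with replicate 1 above for 1 of the 6 genes, and the Mut-labelled total RNA libraries for 2 of 6. WT replicate 2 was the library with the highest plasma cell sum (10350 CPM in mRNA, 6279 CPM in total RNA). The part of plasma cells in these values was not tested.

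Of 40 other ATF6/XBP1 genes, all were tested in mRNA libraries and 34 in total RNA. Of these edgeR called 1 in each, where it called 3.64% and 4.23% of all genes tested. The same gene was called in both, Sec24d, which encodes a coat protein of the vesicles that leave the ER. Sec24d had 14.3 and 13.2 CPM in Mut-labelled mRNA libraries, against 40.7 and 46.7 CPM in WT (log2 fold change −1.67 ± 0.18, edgeR adjusted p = 0.0113). Its total RNA values were 16.9 and 15.6 CPM in Mut-labelled, against 34.4 and 43.3 CPM in WT (−1.25 ± 0.33, adjusted p = 0.0338). The groups were far apart in both kinds. The DESeq2 test called Sec24d and Fkbp14, which encodes an ER prolyl isomerase, in mRNA libraries and no gene of the list in total RNA. Fkbp14 had 0.657 and 0.875 CPM (23 and 32 counts) in Mut-labelled mRNA libraries, against 2.66 and 4.24 CPM (101 and 162 counts) in WT (−2.16 ± 0.46, edgeR adjusted p = 0.0727). It had too few counts to test in total RNA. The total RNA call of Sec24d was lost without Mut-labelled replicate 1, Mut-labelled replicate 2 or WT replicate 2 (adjusted p = 0.0595, 0.137 and 0.153) and with the DESeq2 test (0.401), and the mRNA call of Sec24d with ERCC scaling. The medians of the list were −0.11 in mRNA and −0.14 in total RNA.

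An interaction term, fitted with edgeR to the 8 libraries together, tested whether the group difference in mRNA and in total RNA was of unequal size. None of the 31 genes was called by edgeR or by DESeq2, and none had an unadjusted p under 0.05 in edgeR. Over all 17416 genes 0% were called and 3.94% had an unadjusted p under 0.05. The smallest edgeR adjusted p among the 31 genes was 0.9999. For Asns the total RNA difference was 0.47 ± 0.43 above the mRNA difference on the log2 scale, which the test did not call (edgeR adjusted p = 0.9999). The 8 libraries are 4 samples measured in both ways, and this fit treats them as independent. The deviations of mRNA and total RNA libraries of the same name from their group means correlated across 10509 genes (Pearson r = 0.449 for Mut-labelled and 0.391 for WT; genes are not independent). With the sample as a block the fit called 111 genes in all and again none of the 31.

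Exons of 12 of the 31 genes overlap another gene in the GENCODE M21 annotation, 8 of them a protein-coding gene (Atf5, Ddit3, Derl2, Manf, Pdia3, Pdia6, Ppp1r15a and Syvn1). Whether reads were counted by strand is not given in the sources used here, so values of these genes may include or lose reads of a neighbour. Asns and Ern1 overlap no other gene there.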

How the data were processed

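RNA was sequenced from Flt3- LSK cells as mRNA and total RNA libraries (2 Mut-labelled and 2 WT of each). The authors deposited raw counts per gene, without normalization; per the submitters' processing notes, mm9, TopHat, featureCounts and edgeR were used, with no version or role. Symbols came from GENCODE M21 names, which matched 32919 of 37991 identifiers, and promoters from RefSeq (GRCm38.p6); files and references differ in build, so coordinates are given for the RefSeq promoter windows alone. The members and the gene lists were chosen with earlier results of these data known. The 92 ERCC and 3 rRNA entries were left out of totals and tests. Mut-labelled and WT libraries were compared separately for mRNA and total RNA with edgeR 4.0.16 in R 4.3.3 (TMM, its filter on low counts, two-sided quasi-likelihood test, Benjamini-Hochberg adjustment over all genes tested, threshold 0.05), checked on simulated counts. The SE is the log2 fold change divided by the square root of F, and ± in the text is that SE. CPM is the count brought to a common library total, with TMM factors. Genes named in full were called members, the sensors and factors, the 2 largest fold changes and the most counted gene of each branch list, and called or smallest-p genes of the other lists. Alternatives were DESeq2 1.42.0, its size factors, ERCC scaling, no filter, a replicate block and each library left out. Libraries of a group differed beyond sampling noise (chi-square per degree of freedom 61.0 and 65.1 for Mut-labelled and WT mRNA, 2.60 and 3.13 for total RNA). The labels do not say that samples were separate animals; p-values reflect the spread between the samples alone, and it may be technical.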

Additional observations from a re-analysis of the deposited data

How the results depend on the processing

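In mRNA libraries 1 of the 31 genes, Asns, was called; the number was 2 with the DESeq2 test (Asns, Ern1), 3 with the replicate block (Asns; Ern1 at −0.69, adjusted p = 0.000305; Derl1 at 0.31, adjusted p = 0.0153), 0 with ERCC scaling and 1 to 2 with a library left out. In total RNA it was 1, with 2 under the replicate block (Asns; Ern1 at −0.53, adjusted p = 0.0178), 2 under ERCC scaling (Asns, Chac1), 0 with the DESeq2 test and 0 to 1 with a library left out. The interaction called 0 of the 31 genes under every alternative run. Over all genes, 624 were called in mRNA, against 168 with ERCC scaling (17 higher, 151 lower, where TMM gave 300 and 324), 1615 with the DESeq2 test, 2870 with the block and 602 to 815 with a library left out. In total RNA 446 were called, against 671 with ERCC scaling (14 higher, 657 lower, where TMM gave 269 and 177), 724 without the filter, 203 with the DESeq2 test, 870 with the block and 381 to 598 with a library left out. The interaction called 0 genes, against 18 with the DESeq2 test, 111 with the block and 0 to 1 with a library left out. The cause of these shifts was not tested. ERCC scaling moved the median of all genes to −0.38 in mRNA and −1.11 in total RNA, and the medians of the 31 genes to −0.34 and −1.16, so that every member was negative. Libraries of the same number deviated together across genes (Pearson r = 0.451 in mRNA and 0.227 in total RNA, over 17128 and 10546 genes that are not independent), but with 2 pairs and no label that ties a number to a batch the samples share only a number. Asns kept its sign under every alternative, from −2.17 to −1.59 in mRNA and from −2.60 to −0.93 in total RNA. Low counts limit what the total RNA libraries can show for Asns, Chac1, Trib3 and Ddit3.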
